A study of Mus musculus with 2 samples.

Results

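The Notch pathway was described in cultured mouse ovaries through 10 of its genes: the receptors *Notch1*, *Notch2* and *Notch3*, the ligands *Jag1*, *Jag2* and *Dll4*, and the target genes *Hes1*, *Hey1*, *Hey2* and *Heyl*. They were chosen by name, and every non-control probe matched to these genes by its RefSeq transcript was taken. This gave 12 probes for 10 of the 20654 genes that could be named on the arrays. Probes without such a match were not searched. The ovaries came from 2-week-old mice. They were split lengthwise, and the symmetrical pieces were kept in culture for 3 days with tachykinin receptor (TKR) agonists, namely [Sar9, Met(O2)11]-SP for TACR1, GR-64349 for TACR2 and a succinyl-modified fragment of substance P for TACR3, or with TKR antagonists, which were an antagonist of TACR1, GR-94800 for TACR2 and SB218795 for TACR3. Each ligand was used at 1 μM. The methods list the ligands as alternatives, while the labels speak of agonists and antagonists in the plural. The paper's results describe this screen as treatment with all the TKR antagonists, and with TKR agonists. Whether the agonists were given together is not settled here. Cy3-labelled cRNA from 100 ng of RNA was hybridised to 1 single-colour oligonucleotide array for each condition. The tissue is a mixture of follicles, stroma, vessels and surface epithelium, and the sources used here do not give the strain of the ovaries on the arrays or how many ovaries were pooled. There were no replicates, so no test was made, no p-value is given, and no spread between ovaries is known. No array of untreated ovaries was analysed here, so a ratio compares agonists with antagonists and does not give the direction from an untreated state.

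Notch receptors are proteins of the cell surface that are switched on by ligands of the Jagged and Delta-like families on a neighbouring cell. Ligand binding lets proteases release the intracellular part of the receptor, which enters the nucleus, joins the DNA-binding protein RBPJ and activates genes such as those of the Hes and Hey repressor families. In the ovary, Notch signalling is known between oocytes, which carry *Jag1*, and granulosa cells, which carry *Notch2*, and in blood vessels, where *Notch1*, *Notch4* and *Dll4* act in endothelium and *Notch3* in smooth muscle and pericytes.

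Of 59305 spots that are not controls, 38765 (65.4%) with the agonists and 36549 (61.6%) with the antagonists were well above background by the image analysis software, and 0 were saturated. Signals are given below in the linear signal units of each array, before scaling. The log2 ratio is the log2 signal on the agonist array minus that on the antagonist array, after each array was reduced by its 75th percentile of 672 and 569 signal units, respectively. The named genes well above background on each of the arrays numbered 15254. Their log2 ratios had a median of -0.10, and the 5th and 95th percentiles were -0.56 and 0.89. The share of these genes at least 2-fold higher on the agonist array was 4.01%, that at least 2-fold lower was 0.577%, and that with a log2 ratio above 0 was 37.7%. The tissue label was checked with marker genes. All 10 oocyte markers, *Gdf9* and *Zp3* among them, and all 10 granulosa cell markers, among them *Foxl2* and *Amh*, were well above background on both arrays. So were 15254 of the 20654 named genes, which makes detection alone a weak check.

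All 10 Notch genes had a probe well above background on both arrays, as had 15254 of the 20654 named genes. Of the Notch genes, 9 (90%) had a log2 ratio above 0, against 37.7% of all genes. Their median log2 ratio was 0.33, which was 0.43 above the median of all genes. *Notch1* and *Hey1* were at least 2-fold higher on the agonist array, which is 2 of 10 against 4.01% of all genes, and 0 of 10 were at least 2-fold lower, against 0.577%. *Heyl* was the exception in direction and was lower on the agonist array. The genes were chosen with earlier results of these data known and 1 array stood for each condition, so these counts describe this pair of arrays.

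Among the receptors, *Notch1* differed most between the arrays. Its signal was 2708 units with the agonists but 1096 with the antagonists, which gave a log2 ratio of 1.06 (2.09-fold). Of all genes, 3.55% had a higher ratio. The software's own error on each signal, taken over to the ratio, was 0.20 for *Notch1*; for spots of this brightness it is nearly a fixed share of the signal and covers the reading of 1 spot, not the ovaries. *Notch2*, the receptor of granulosa cells, had 2217 units with the agonists and 1844 with the antagonists. Its log2 ratio of 0.02 was well within its error of 0.20, since most of the difference in raw signal was removed by the scaling, and it was the only member to change sign with the scaling (-0.03 with scaling on the median). *Notch3*, the receptor of vascular smooth muscle, had 1424 and 956 units, and a log2 ratio of 0.33 with an error of 0.20. The ratio of *Notch1* was 1.04 above that of *Notch2* and 0.73 above that of *Notch3*, both beyond the error of a difference, 0.29. *Notch1* and *Notch2* each had another probe that was not well above background on either array (15.3 and 12.6 units for *Notch1*, 16.2 and 21.3 units for *Notch2*), so each receptor rests on 1 probe with 1 spot (A_55_P2171897 for *Notch1*, A_52_P289213 for *Notch2* and A_51_P220162 for *Notch3*).

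**Figure D1:**
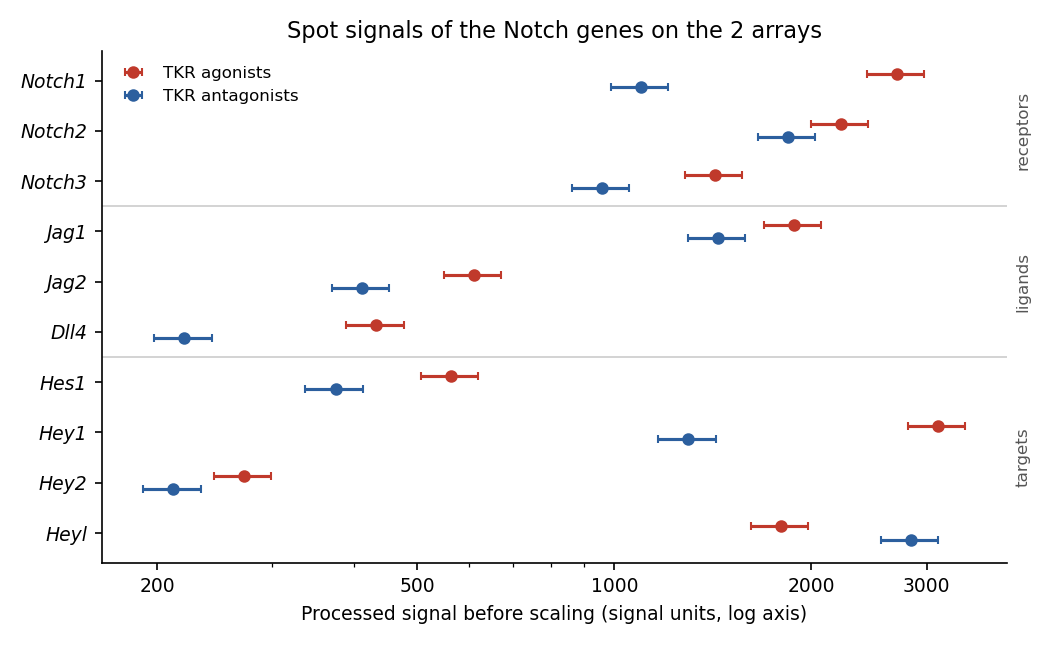
Processed signal of the 10 Notch genes on the agonist array (red) and the antagonist array (blue), before scaling, on a log axis; each point is 1 spot and the bar is the software's error of its signal. The bars of the paired spots overlap for Notch2 and lie apart for the other 9 genes, and Heyl is the gene with the higher signal on the antagonist array; signals of different probes are not comparable with each other.

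The ligands all had ratios above 0, and *Dll4* had the highest. *Dll4*, the Delta-like ligand of sprouting endothelium, had 433 units with the agonists but 220 with the antagonists, for a log2 ratio of 0.73 (1.66-fold, error 0.21). Of all genes, 6.80% had a higher ratio. *Jag2* had 611 and 411 units and a log2 ratio of 0.33 (error 0.20). *Jag1*, the ligand known from oocytes, had 1879 and 1441 units and a log2 ratio of 0.14, within its error of 0.20. *Dll4* lay 0.40 above *Jag2* and 0.59 above *Jag1* on the log2 ratio scale, with an error of 0.29 for each difference. *Dll4* was among the dimmer members: its raw spot was 6.34 times its local background on the antagonist array and 11.5 times on the agonist array, and its ratio was 0.56 when the background was modelled instead of subtracted (normexp).

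The target genes split between the arrays. *Hey1*, a repressor induced by Notch in endothelium and other cells, had 3128 units with the agonists but 1298 with the antagonists, for a log2 ratio of 1.03 (2.04-fold, error 0.20), and 3.80% of all genes had a higher ratio. *Heyl*, of the same repressor family and known from vascular smooth muscle, went the other way. It had 1795 units with the agonists but 2840 with the antagonists, for a log2 ratio of -0.90 (1.87-fold lower on the agonist array, error 0.20), and 0.905% of all genes had a lower ratio. It was also the only member whose unscaled signal was higher on the antagonist array. *Hey1* and *Heyl* lay 1.93 apart on the log2 ratio scale, with an error of 0.29. *Hes1*, a repressor that Notch and other signals induce in many cells, had 563 and 375 units and a log2 ratio of 0.35 (error 0.21). *Hey2*, the arterial member of the Hey family, was the dimmest of these spots against its surroundings, at 7.93 and 6.17 times local background. It had 271 and 212 units and a log2 ratio of 0.12, within its error of 0.21. The targets were read by the probes A_51_P258409 (*Hey1*), A_52_P337259 (*Heyl*), A_55_P2046245 (*Hes1*) and A_51_P307082 (*Hey2*), and the ligands by A_52_P634090 (*Jag1*), A_51_P451338 (*Jag2*) and A_51_P384402 (*Dll4*), with 1 spot each.

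In order of their log2 ratios, the genes ran from *Notch1* and *Hey1* through *Dll4*, *Hes1*, *Notch3*, *Jag2*, *Jag1*, *Hey2* and *Notch2* to *Heyl*. Of the 9 pairs of neighbours in this order, 6 differed by no more than the error of their difference. *Notch1* and *Hey1* could not be told apart (difference 0.03), nor could neighbours in the run from *Hes1* to *Notch2*. The steps beyond the error were those from *Hey1* to *Dll4* (0.29), which only just passed it, from *Dll4* to *Hes1* (0.39) and from *Notch2* to *Heyl* (0.93). The precision was also read from repeated measurements elsewhere on the arrays. For the 122 probes printed in 10 spots within the signal range of the Notch genes, the SD of the log2 ratio between spots had a median of 0.07 and a 95th percentile of 0.14. For 1963 genes with 2 probes, the ratios of the probes differed by a median of 0.10, with a 95th percentile of 0.45. *Notch1*, *Hey1* and *Dll4* lay further than 0.45 above the median of all genes (by 1.16, 1.12 and 0.83), *Heyl* lay further below it (by -0.81), and the other 6 genes lay within that distance.

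The promoters of the genes were examined for the letters that RBPJ binds, since this protein brings Notch to its targets. RefSeq promoter windows, from 250 bases before to 50 bases after the start of a gene in GRCm38.p6, were at hand for 7 of the 10 genes, and *Hes1*, *Hey1* and *Heyl* were not among them. The RBPJ core TGGGAA, searched on both strands, stood in 25.6% of 32851 such windows, and the longer form GTGGGAA, which contains the core, in 6.38%. Of the 7 windows, 1 held the core, that of *Hey2*, which had it in the longer form at 3 bases before the start as written and at 207 bases before it in the complement. The E-box CACGTG, a target of Hes and Hey repressors that reads the same on both strands and whose last letters can be the first of the RBPJ core, stood in 7.15% of all windows and in 0 of these 7. In a list of 50 other pathway genes described further on, 14 of 53 windows held the RBPJ core and 6 held the E-box. Among the genes of both lists, 4 windows held 2 cores, those of *Hey2* (204 bases apart), *Hes5* (144), *Rbpj* (84) and *Lfng* (27). *Hes5*, a target of Notch in many tissues, had them at 226 bases (complement) and 82 bases before its start. The windows of *Hey2* and *Hes5* are shown as targets with 2 cores, those of *Notch1* and *Dll4* as a receptor and a ligand without one, and that of *Nrarp* as a target with an E-box; they were picked with the ratios known, so no relation between motif and ratio can be read from them. Each is written 5′ to 3′ on the strand of the gene, with the RBPJ core (or its complement TTCCCA) and the E-box in capitals.
Hey2, chr10:30842734-30843033, minus strand: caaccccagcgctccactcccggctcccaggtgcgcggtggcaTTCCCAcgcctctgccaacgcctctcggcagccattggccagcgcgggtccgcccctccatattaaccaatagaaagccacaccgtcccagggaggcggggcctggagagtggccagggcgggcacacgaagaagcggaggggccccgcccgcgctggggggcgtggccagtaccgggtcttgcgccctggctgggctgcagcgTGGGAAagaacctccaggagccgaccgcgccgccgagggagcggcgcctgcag
Hes5, chr4:154960673-154960972, plus strand: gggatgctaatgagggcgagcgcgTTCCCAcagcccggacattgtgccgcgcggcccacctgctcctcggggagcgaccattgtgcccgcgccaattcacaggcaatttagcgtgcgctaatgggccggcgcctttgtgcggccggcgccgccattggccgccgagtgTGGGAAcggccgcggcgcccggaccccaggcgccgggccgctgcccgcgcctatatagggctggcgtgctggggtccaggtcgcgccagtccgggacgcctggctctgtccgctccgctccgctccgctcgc
Notch1, chr2:26503773-26504072, minus strand: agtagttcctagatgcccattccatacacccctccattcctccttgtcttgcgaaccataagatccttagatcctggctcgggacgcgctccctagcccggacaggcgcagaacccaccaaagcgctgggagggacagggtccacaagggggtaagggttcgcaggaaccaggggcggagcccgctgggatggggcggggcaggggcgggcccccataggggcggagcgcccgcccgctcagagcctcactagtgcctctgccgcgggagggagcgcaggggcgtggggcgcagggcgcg
Dll4, chr2:119325534-119325833, plus strand: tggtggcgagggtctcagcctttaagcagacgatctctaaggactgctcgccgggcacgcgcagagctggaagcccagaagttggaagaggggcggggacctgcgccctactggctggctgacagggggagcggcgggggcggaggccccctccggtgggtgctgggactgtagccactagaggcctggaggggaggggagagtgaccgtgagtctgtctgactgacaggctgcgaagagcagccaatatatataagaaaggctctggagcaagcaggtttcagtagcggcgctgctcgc
Nrarp, chr2:25180508-25180807, plus strand: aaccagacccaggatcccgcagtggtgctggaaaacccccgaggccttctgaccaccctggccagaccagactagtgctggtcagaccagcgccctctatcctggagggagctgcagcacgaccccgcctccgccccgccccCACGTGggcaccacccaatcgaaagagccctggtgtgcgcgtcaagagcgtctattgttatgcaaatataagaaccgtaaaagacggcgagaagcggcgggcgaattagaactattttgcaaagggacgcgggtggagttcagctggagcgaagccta
The E-box of *Nrarp* lay 108 bases before its start. The 6 windows of Notch genes without a core belonged to genes over the whole span of positive log2 ratios, from *Notch2* (0.02) to *Notch1* (1.06), and *Hey2*, with 2 cores, had 0.12. A match to these letters is a description of the window and not a site that was measured, and the absence of the letters says nothing about RBPJ elsewhere in the gene.

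The rest of the pathway was described with a list of 50 genes, of which 48 had a named probe and 45 were well above background on both arrays. Their median log2 ratio was -0.08, 0.01 above the median of all genes, with 13 of 45 (28.9%) above 0, against 37.7% of all genes. At least 2-fold higher on the agonist array were 3 of the 45 (6.67%), against 4.01% of all genes, and 0 were at least 2-fold lower, against 0.577%. The list as a whole thus lay close to all genes. A log2 ratio of at least 0.58, about 1.5-fold, was reached by 5 of the 45. Of all 15254 genes, 1413 were at least 1.5-fold higher. *Notch4*, the endothelial receptor, had 2342 units with the agonists but 655 with the antagonists, for a log2 ratio of 1.60 (3.03-fold, error 0.20), which was above that of each of the 10 Notch genes. *Dtx1*, a ubiquitin ligase that binds the intracellular part of Notch, had 760.5 and 255 units, a log2 ratio of 1.33 (2.52-fold). *Nrarp*, a feedback inhibitor induced by Notch, had 159 and 57.5 units, a log2 ratio of 1.23 (2.35-fold, error 0.24). *Mfng*, a Fringe enzyme that adds sugars to the receptors and alters which ligands they answer to, had 2936 and 1345 units, a log2 ratio of 0.89 (1.85-fold), and its other probe gave 0.88. *Dlk1*, a ligand-like protein without the usual receptor-binding domain of the Delta family, had 1622 and 784 units, a log2 ratio of 0.81 (1.75-fold), and its other probe gave 0.86. The other 40 genes lay between -0.51 and 0.29.

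By role, the medians of the genes that process and relay the signal were near that of all genes, of which 37.7% were above 0, and single genes lay further out. *Rbpj* had 1784 and 1744 units and a log2 ratio of -0.21 (its other probe gave -0.48), and its coactivator *Maml1* had 1595 and 1489 units and -0.14. In this nuclear complex, 3 of 7 genes were above 0, from *Rbpj* to the acetyltransferase *Kat2b* (0.29). Of the corepressors, 2 of 7 were above 0, from the deacetylase *Hdac1* (-0.20) to *Tle3* (0.15). Of the genes for receptor cleavage, 2 of 7 were above 0, from the protease *Adam17* (-0.51, with -0.11 by its other probe, and 6.35% of all genes lower) to the gamma-secretase subunit *Ncstn* (0.24). *Aph1b*, another subunit of that protease and named after its value was seen, had -0.49 (-0.23 by its other probe), with 6.82% of all genes lower. Of those for ligand endocytosis, 0 of 4 were above 0, from *Mib2* (-0.36) to *Neurl1b* (-0.08). Of the Fringe and glycosylation genes, 1 of 4 was above 0, and *Pofut1* (-0.24) and *Rfng* (4654 and 4373 units, -0.15) lay far below *Mfng*. Of the genes for inhibition and turnover, 2 of 8 were above 0, with the ubiquitin ligase component *Fbxw7* lowest (-0.32). Among the other targets, *Hes5* was the lowest (90.9 and 99.9 units, -0.38, error 0.22), *Hes6* had -0.08 and *Hes7* -0.02. *Dll3*, a ligand that does not activate receptors on other cells, had 272 and 275 units and a log2 ratio of -0.26 (-0.08 by its other probe), and *Dner* had -0.28. *Dll1* was at the background: 8 of its 10 spots on the agonist array (10.7 to 37.3 units, median 25.0) and 1 of 10 on the antagonist array (7.58 to 21.5 units, median 15.6) were well above it, and no fold is given. *Lfng* (at most 13.6 units) and *Helt* (at most 4.41 units) were not well above background on either array. No probe was matched to *Dlk2*.

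**Figure D2:**
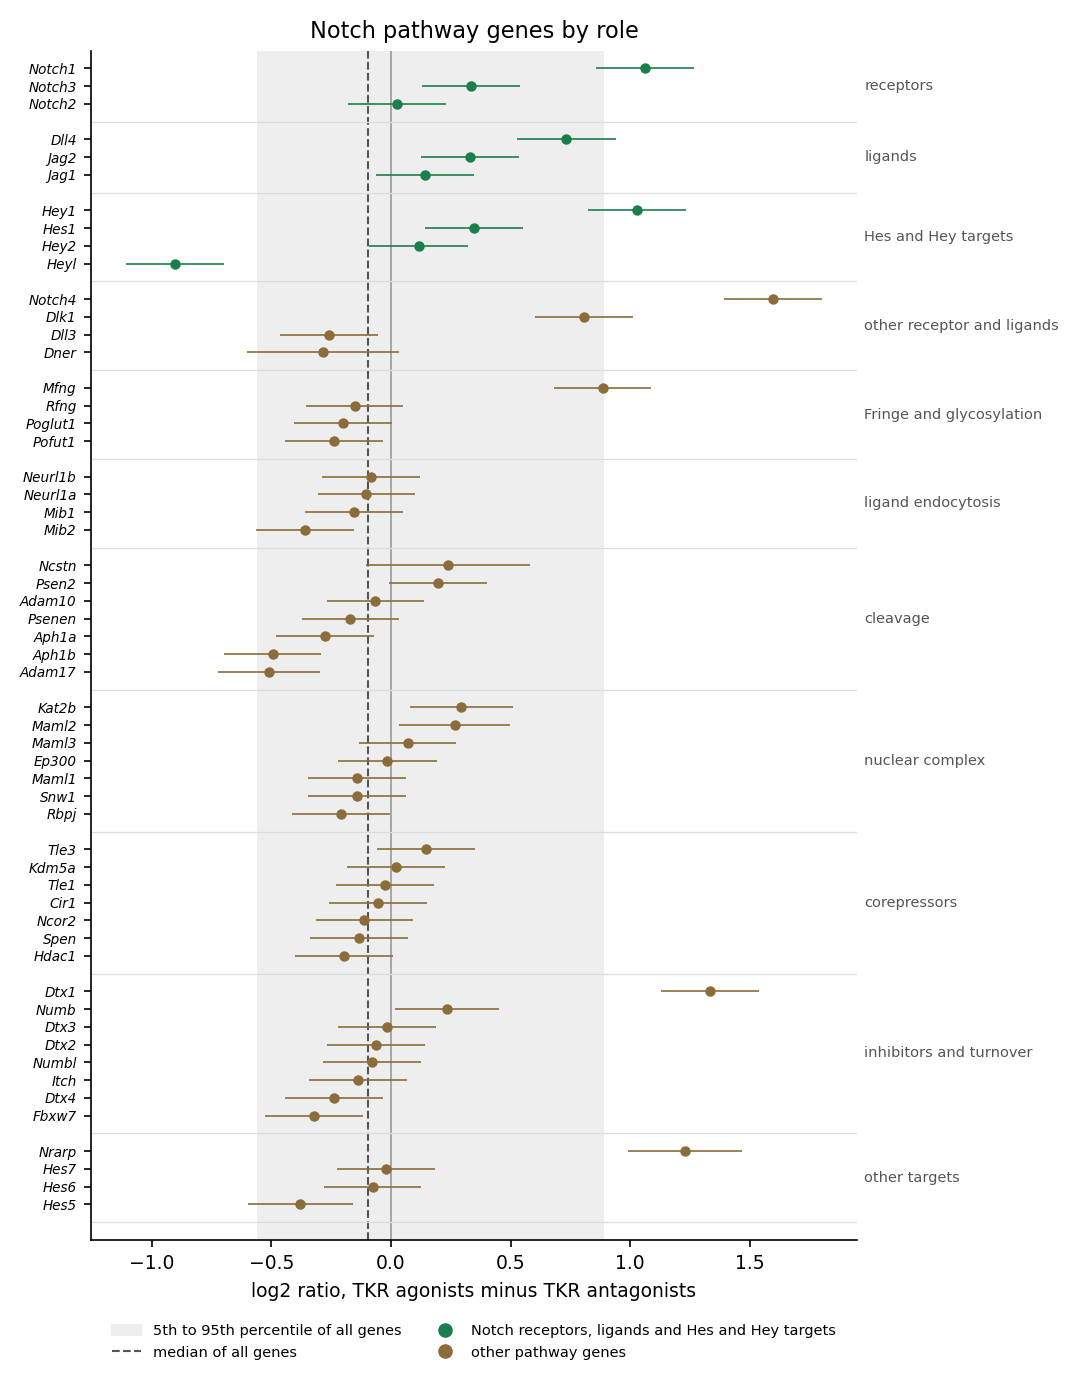
Log2 ratio, agonists minus antagonists, of the 10 Notch genes (green) and of the 45 other pathway genes measured on both arrays (brown), grouped by role; bars are the software's error on the ratio, the dashed line is the median of all genes and the grey band runs from their 5th to their 95th percentile. Notch1, Hey1, Notch4, Dtx1 and Nrarp lie above the band and Heyl below it, while most genes of the relay and nuclear complex lie near the dashed line.

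Marker genes of the cell types of the ovary were measured beside the Notch genes, because a whole tissue was extracted. In such tissue, fewer cells of a type and less RNA per cell cannot be told apart. Of all genes, 37.7% were above 0 and the median was -0.10, which is the reference for each marker list here and below. The endothelial markers had a median log2 ratio of 0.88, with 8 of 9 above 0, from *Kdr* (-0.27) to *Tie1* (1.62), and *Tek* was well above background on the agonist array only (at least 4.10-fold). Their signals, summed over the markers and scaled to the 75th percentile, came to 77.7 with the agonists and 62.5 with the antagonists. In such sums, here and below, the brightest probes weigh most, and signals of different probes are not comparable. *Notch1* (0.19 above that median), *Hey1* (0.15 above) and *Dll4* (a difference of -0.14) lay within the range of the endothelial markers, but also within those of other cell types, given next. The smooth muscle and pericyte markers had a median of 0.61, with 7 of 8 above 0, from *Mcam* (-0.17) to *Rgs5* (1.27). *Des* was well above background on the agonist array only (at least 2.63-fold). The summed level was 124 against 118, of which *Mcam* alone gave 80.1 and 90.2. *Notch3* differed from their median by -0.27 and *Heyl* by -1.51. *Heyl* thus lay far from the markers of the vessel cells in which it is known, and *Notch3* lay 1.24 above it.

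The granulosa cell markers had a median log2 ratio of -0.47, with 2 of 10 above 0, from *Fst* (-0.78) to *Cyp19a1* (0.37), and a summed level of 112 against 151. Against this median, *Notch2* lay 0.49 higher, *Jag1* 0.61 higher, *Hey2* 0.58 higher and *Hes1* 0.81 higher, while *Heyl* differed from it by -0.43. The ratio of *Heyl* was below those of all 10 granulosa markers, although it differed from that of *Fst* by less than the error of a difference. The oocyte markers had a median of 0.17, with 7 of 10 above 0, from *Zp3* (-0.13) to *Kit* (0.71), and a summed level of 248 against 254, and *Jag1* (0.14) lay close to it. The theca and stroma markers had a median of 0.21, with 5 of 9 above 0, from *Ptch1* (-0.41) to *Cyp11a1* (0.79), and summed to 322 against 271. The surface epithelium markers had a median of 1.03, with 7 of 7 above 0, from *Upk3b* (0.62) to *Lgals7* (3.14), and summed to 37.9 against 17.2. The macrophage markers had a median of 0.80, with 5 of 5 above 0, from *Csf1r* (0.15) to *Adgre1* (1.42), and a summed level of 12.5 against 9.68. *Ptprc* was well above background on the agonist array only. Its scaled signal there was 1.81-fold its dim signal on the antagonist array, which is no lower bound. No probe was matched to *Insl3* or *Cd68*. *Notch1* (0.03 above) and *Hey1* were closer to the surface epithelium median, and *Dll4* (a difference of -0.06) closer to the macrophage median, than to the endothelial one, so the ratios do not assign these genes to a cell type. The part of these differences between cell types in the ratios of the Notch genes was not tested.

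**Figure D3:**
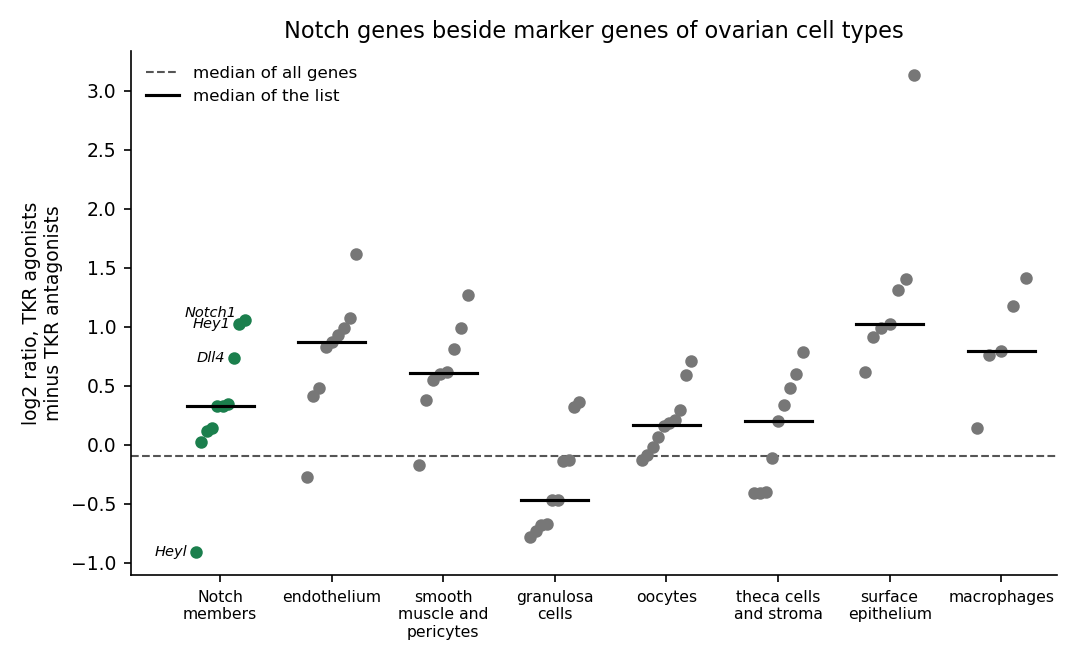
Log2 ratio, agonists minus antagonists, of the 10 Notch genes (green) and of marker genes of 7 ovarian cell types (grey); each point is 1 gene, a bar is the median of a list and the dashed line is the median of all genes. Notch1 (1.06) and Hey1 (1.03) lie closest to the surface epithelium median (1.03), and Dll4 (0.73) to the macrophage median (0.80). The endothelial median is 0.88 and that of smooth muscle and pericytes 0.61. Heyl lies below each of the granulosa cell markers.

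The scaling sets the zero of all ratios and was varied. The median of all genes was -0.10 with the 75th percentile and ranged from -0.15 with scaling on the median to 0.16 with scaling on the spike-in controls. Settings that shift all genes alike leave the distance of a gene from that median as it is. It could change only with loess, quantile normalization, normexp, the filters and the summary of spots and probes. *Notch1* lay between 1.14 and 1.21 above the median, *Hey1* between 1.11 and 1.17 and *Dll4* between 0.66 and 0.85, and *Heyl* differed from it by -0.82 to -0.76, over the alternatives that measured the gene. *Hey1* was below 2-fold with scaling on the median (0.97).

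**Figure D4:**
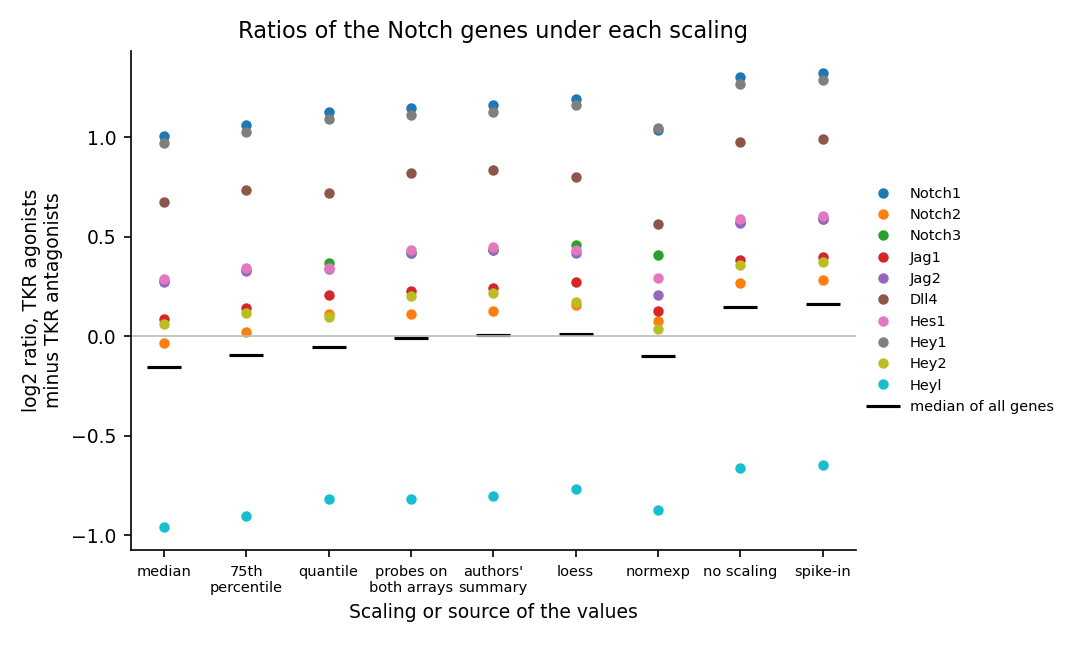
Log2 ratio of the 10 Notch genes, agonists minus antagonists, with each scaling or source of the values; each point is 1 gene and a black bar is the median of all genes. The points shift together with the bar, Heyl stays below it and the other 9 genes stay above it in each column, and Notch2 lies below 0 with scaling on the median.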

How the data were processed

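Total RNA of cultured ovaries was measured on 1 single-colour Agilent array for each condition, both on the same slide. The authors deposited the linear intensity of each spot from Agilent Feature Extraction (10.10.1.1 per the file headers), after its background correction and without scaling between arrays, with its marks for outliers and for detection above background. A summary table of intensity values was deposited too; it equals the processed signal times 1.99 for the agonists and 2.19 for the antagonists. The number of arrays limits the precision.

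From these files, control spots and outlier spots were removed, log2 of the processed signal was reduced by its array's 75th percentile and repeated spots were averaged per probe. A probe counted as well above background if over 50% of its spots did. Genes were named through RefSeq transcripts of GRCm38 (27224 of 55674 probes) and represented by their brightest probe well above background. Where only 1 array measured a probe, its fold was taken against a value on the other array. That value was the higher of the probe's dim signal and the lowest signal well above background there. The fold is a lower bound only where the lowest signal well above background was used. The members and gene lists were chosen with earlier results of these data known. All 10 Notch genes were named, as were 10 pathway genes whatever their values (*Notch4*, *Dll1*, *Dll3*, *Dlk1*, *Lfng*, *Mfng*, *Rfng*, *Rbpj*, *Maml1*, *Nrarp*), pathway genes with a log2 ratio of at least 0.58 in size or at either end of their role, and the extremes and undetected genes of each marker list. *Hes6* and *Hes7* were added after their values were seen, as were *Gdf9*, *Foxl2* and *Amh* as examples. Another pathway gene is not reported here.

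The 15 alternatives changed scaling (none, median, probes detected on both arrays, quantile, loess with span 0.3, 8 E1A spike-in probes), source (the authors' summary), background (limma's normexp on the median spot signal, offset 50), the summary of spots and probes, filters and the fold threshold (1.5 and 4). Python 3.11.15, numpy 2.4.6, pandas 2.3.3, statsmodels 0.14.6 and limma 3.58.1 under R 4.3.3 served as software. Each ratio calculation was first tested on simulated data.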

Additional observations from a re-analysis of the deposited data

How the results depend on the processing

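No paired analysis was possible because a condition is 1 array, which also leaves no replicate to drop. Of the 15 alternatives, 13 gave values for single Notch genes. In 5 of them (other summaries and filters) the 46 values could not move, since each gene rests on 1 spot. In 5 scalings that shift every gene alike, 20 of 50 values moved by more than the error of the ratio, all without scaling or with spike-in scaling. With loess, quantile normalization and normexp, 0 of 30 values did, and the largest move was 0.17. The median over the Notch genes was then 0.57 without scaling and 0.59 with spike-in scaling, and that over the other pathway genes 0.16 and 0.18. With scaling on the median, 1 of the 10 Notch genes was at least 2-fold higher and 0 were lower, against 548 and 114 of 15254 genes. Over all genes, at least 2-fold higher and lower were 992 and 39 without scaling, 1026 and 38 by spike-in controls, 323 and 33 under normexp, 1349 and 554 if dim probes are kept (70.9% of them higher, against 87.4%) and 176 and 19 among bright genes, against 612 and 88 as reported. The gene totals behind these counts were 15254, but 15249 under normexp, 20654 with dim probes kept and 8428 among bright genes. The authors' summary values gave 58 lower. At 1.5-fold, 1413 of the 15254 genes were higher and 653 lower, and of the 10 Notch genes 3 were higher and 1 (*Heyl*) lower. At 4-fold the counts were 104 and 9 over all genes, and 0 and 0 for the Notch genes. Among bright genes, only 6 of the Notch genes were measured. The cause of these differences was not tested. *Hey2* and *Dll4*, at 6.17 and 6.34 times local background on the antagonist array, had the lowest signal over background.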
